A study of Mus musculus with 15 samples.

Results

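The collagens and a set of fibroblast matrix genes were followed in large sensory neurons of the mouse dorsal root ganglion (DRG), the cluster of sensory cell bodies beside the spinal cord. The set holds every gene whose symbol has the form Col, a number, a and a number, which gave 44 collagen chains, and 10 further genes: Ogn, Dcn, Lum, Fbln1, Fbln2, Fn1, Postn, Abi3bp, Sfrp2 and Pdgfra. It comprised 54 of the 19938 genes tested, and all 54 genes that the rule takes from the reference gene table were measured. Each gene was read from 1 probe set of an Affymetrix whole-transcript array, the one with the highest mean over all arrays. Values are log2 expression as normalized by the authors, so the log2 difference of 2 group means is the log2 of a fold change. Because each probe set binds its target with its own strength, a level was compared between arrays and never between genes.

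The study profiled 15 arrays in 5 groups of 3 biological replicates, from C57BL/6 mice in which green fluorescent protein (GFP) is driven by the CGRP promoter (CGRP, or calcitonin gene-related peptide, is a neuropeptide of many pain-sensing neurons). Neurons over 26.9 µm in diameter from lumbar ganglia 2 to 5 were sorted by GFP and by wheat germ agglutinin coupled to a dye, which had been injected 5 days before the mice were killed and had travelled back along the axons from the gastrocnemius muscle or the saphenous nerve. The CFA paw group and its control, the saline paw group, held CGRP-positive neurons traced from the skin nerve. The CFA muscle and acid muscle groups and their control, the saline muscle group, held CGRP-negative neurons traced from muscle. CFA is, in studies of pain, complete Freund's adjuvant, an emulsion that causes inflammation. All groups carried the reporter and received the tracer. The labels state neither the sex nor the age of the mice, nor whether a replicate pooled animals, so p-values measure the spread between these samples. CGRP status, traced nerve and injected site all differ between paw and muscle groups, and their parts in a paw against muscle difference cannot be told apart.

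Collagens are triple helices of 3 chains that give tissues their tensile strength. Fibrillar collagens form the cables of connective tissue, type IV collagen forms the sheet of basement membranes, and the remaining types decorate, anchor or link these structures. In a ganglion or nerve they are made mainly by fibroblasts of the connective tissue sheaths, by Schwann cells and by cells of the vessel wall, and sensory neurons are not known as their main source. Decorin, lumican and osteoglycin are small leucine-rich proteoglycans that bind collagen fibrils.

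The promoters of 3 members are shown because these genes had the smallest p of their kind in CFA paw against CFA muscle neurons. They were Ogn among the proteoglycans, Sfrp2 among the signalling proteins and Col1a2 among the collagens, although Col1a2 did not pass the threshold there. Each runs over the 250 bases before the annotated start of the gene in RefSeq (build GRCm38.p6), 5′ to 3′. Capitals mark matches to 5 short motifs searched on both strands, namely the TATA box TATAAA, the CCAAT box CCAAT, the GC box GGGCGG, the AP-1 site TGANTCA and the TEAD site GGAATG.
Ogn promoter, chr13:49607765-49608014, plus strand: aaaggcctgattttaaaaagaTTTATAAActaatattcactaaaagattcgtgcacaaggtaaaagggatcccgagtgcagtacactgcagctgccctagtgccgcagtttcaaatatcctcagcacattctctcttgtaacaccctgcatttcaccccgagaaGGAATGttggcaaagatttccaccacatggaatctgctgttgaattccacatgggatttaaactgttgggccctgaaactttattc
Sfrp2 promoter, chr3:83766071-83766320, plus strand: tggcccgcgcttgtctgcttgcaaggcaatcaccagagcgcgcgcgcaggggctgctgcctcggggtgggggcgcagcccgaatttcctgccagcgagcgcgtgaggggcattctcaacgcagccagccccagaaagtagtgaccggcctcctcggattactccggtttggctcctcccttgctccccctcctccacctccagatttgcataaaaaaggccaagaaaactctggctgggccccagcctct
Col1a2 promoter, chr6:4505368-4505617, plus strand: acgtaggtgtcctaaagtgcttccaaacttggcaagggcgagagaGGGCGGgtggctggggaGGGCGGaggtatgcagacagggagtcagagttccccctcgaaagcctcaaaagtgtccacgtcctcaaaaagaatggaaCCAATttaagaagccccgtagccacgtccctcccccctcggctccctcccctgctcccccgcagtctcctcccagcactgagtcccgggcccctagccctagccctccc
The Ogn window held TATAAA on both strands, in 2 overlapping matches that lie 229 and 227 bases before the start, and GGAATG 86 bases before it. The Col1a2 window held CCAAT 109 bases before the start and GGGCGG at 205 and 188 bases. The Sfrp2 window held none of the 5. Of 46 promoters listed for 41 members, 52.2% held GGGCGG, 28.3% CCAAT, 15.2% TATAAA, 10.9% GGAATG and 2.17% TGANTCA. Over all 32851 promoters of this length the shares were 32.7%, 33.8%, 12.4%, 12.6% and 6.75% in the same order. These are counts of letters and not of bound factors.

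Saline paw replicate 1 stood apart in a way that touches the collagens. On it the median over the 44 collagens was 4.49, against 3.53 to 3.93 on the other 5 paw arrays and 4.06 to 4.50 on the 9 muscle arrays. Among the 6 paw arrays, 41 of 44 collagens were highest on it, while 39.3% of all genes were. The SD over all genes of 1 array was 1.42 there, 1.66 to 1.80 on the other paw arrays and 1.28 to 1.55 on the muscle arrays, so the collagens were high where the array's values were less spread. The mean of 15 sensory neuron markers was 8.13 on that array, against 8.96 to 9.23 on the other paw arrays and 7.21 to 8.33 on the muscle arrays. Correlations between arrays of 1 group ran from 0.987 to 0.991 in CFA paw, from 0.939 to 0.991 in saline paw, from 0.969 to 0.983 in CFA muscle, from 0.953 to 0.974 in acid muscle and from 0.962 to 0.980 in saline muscle. Results that rest on saline paw are therefore given with and without replicate 1, and the part of the array's spread in them was not tested. The collagens' own values helped to single out this array, and dropping it lowers the saline paw mean of most collagens by construction. The collagen calls without it, here and for each class below, show how far results rest on 1 array and are not separate evidence.

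Background was set at 2.44, since 95% of 1194 genes for olfactory or vomeronasal receptors, which neurons of the ganglion are not expected to use widely, averaged less. Of the 54 genes, 53 lay above it in the mean of at least 1 group and 48 in all groups. Lum lay below it on every array and Abi3bp lay above it on 3 arrays, Fn1 on 9, Col10a1 and Ogn on 11 and Sfrp2 and Pdgfra on 12. Fbln1 lay above it on 13 arrays and Col4a6 and Col5a2 on 14. The 44 collagens varied over the 15 arrays by a median range of 1.05, from 0.55 for Col19a1 to 1.81 for Col6a6. Ogn varied by 5.10 and Dcn by 2.06, the only 2 of the 54 genes with a range over 2.

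**Figure D1:**
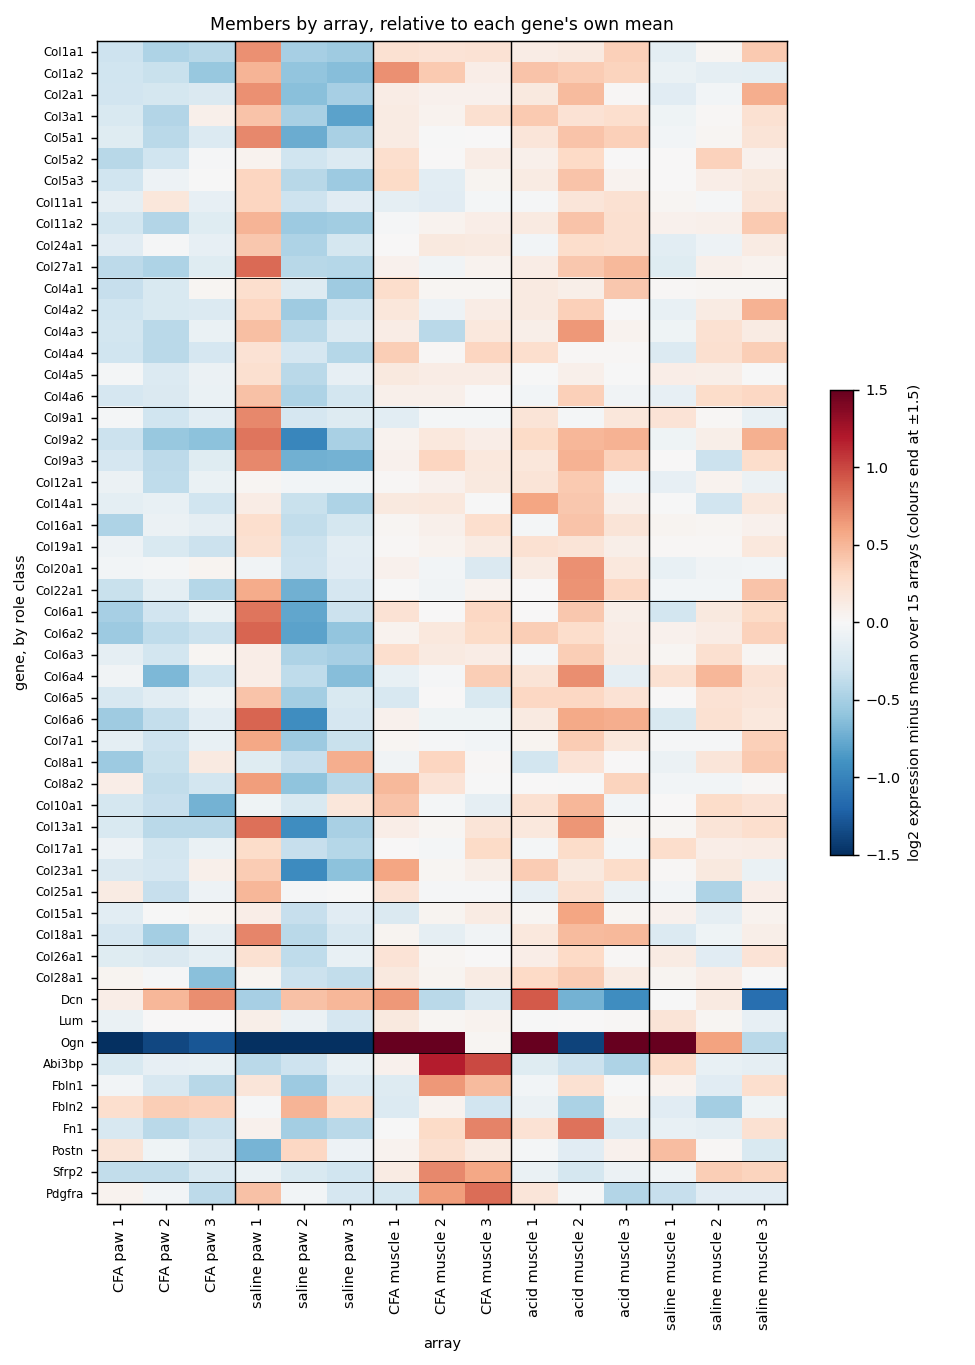
Expression of the 54 genes (rows, grouped by role) on the 15 arrays (columns), as log2 expression minus the gene's own mean over all arrays, red above and blue below, with colours ending at ±1.5. Most collagen rows are red on saline paw replicate 1 and blue on the other 5 paw arrays, and the Ogn row is blue on all 6 paw arrays, on acid muscle replicate 2 and, more palely, on saline muscle replicate 3.

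Differences were tested with limma over all 19938 genes, with Benjamini-Hochberg adjustment and a threshold of 0.05. Among the 54 genes, 3 were lower in CFA paw than in CFA muscle neurons, where 0.667% of all genes were: Sfrp2, Abi3bp and Ogn. No member passed the threshold in any of the comparisons of CFA or acid with saline, and none between saline paw and saline muscle when all arrays were used. Without saline paw replicate 1, 20 collagens were lower in the saline paw group than in the saline muscle group and Fbln2 was higher. In that fit 5.10% of all genes were lower and 14.1% higher. That array was singled out partly by its high collagen values, and no collagen passed when saline paw replicate 2 or 3 was left out instead.

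Ogn encodes osteoglycin, a small leucine-rich proteoglycan of bone, vessel wall and nerve sheath. It read 2.21, 2.71 and 2.79 on the CFA paw arrays, 1.88, 2.38 and 2.21 on the saline paw arrays, 6.97, 6.19 and 4.11 on the CFA muscle arrays, 6.80, 2.68 and 5.75 on the acid muscle arrays, and 6.07, 4.67 and 3.66 on the saline muscle arrays. All 6 paw arrays were near background, while 8 of the 9 muscle arrays were above every paw array and acid muscle replicate 2 lay within the paw range. The mean was 2.57 ± 0.32 in CFA paw and 5.76 ± 1.48 in CFA muscle (SD, n = 3 each), a difference of −3.18 (SE 0.89, 95% interval −5.09 to −1.28, 9.09-fold, adjusted p = 0.0470). In saline paw the mean was 2.15 ± 0.25 and in saline muscle 4.80 ± 1.21, a difference of −2.65 (SE 0.89) that did not pass the threshold (adjusted p = 0.145). Since no saline paw array exceeded background, that level is only a bound. The saline muscle mean was 5.13-fold the background level, a ratio that leaves out the sampling error of the mean. The difference between CFA paw and CFA muscle kept its sign, from −4.01 to −2.58, when each of the 15 arrays was left out in turn, but adjusted p ran from 0.0110 to 0.208 and passed in 6 of the 15 fits. It was lost without CFA muscle replicate 1 (0.208) or 2 (0.130), without CFA paw replicate 1 (0.155), 2 (0.124) or 3 (0.104), without saline muscle replicate 2 (0.0661), without saline paw replicate 2 (0.0524) or 3 (0.0589), and without acid muscle replicate 3 (0.0518). It was also lost after centring the arrays (0.0791) and after quantile normalization (0.0795).

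The level of Ogn on an array moved with that of 12 Schwann cell markers, the genes of the myelinating and ensheathing glia of nerve. Their mean was 4.60, 4.49 and 4.58 on the CFA paw arrays, 4.45, 4.53 and 4.53 on the saline paw arrays, 5.48, 5.23 and 4.71 on the CFA muscle arrays, 5.64, 4.49 and 5.31 on the acid muscle arrays, and 5.30, 4.84 and 4.70 on the saline muscle arrays. Acid muscle replicate 2, the muscle array with the lowest Ogn, also had the lowest Schwann cell mean of the muscle arrays. It was the lowest muscle array too for satellite glia markers (5.10), sensory neuron markers (7.21) and genes of collagen synthesis and processing (3.70). Macrophage markers were highest of all arrays there (2.51), and the SD over all genes was smallest (1.28). A low list mean on that array was therefore not particular to Schwann cells. All 12 Schwann cell markers were above background in at least 1 group. Of these 12, Mal (−1.60, adjusted p = 0.0470), Gldn (−1.28, 0.0244) and Mag (−0.88, 0.0327) were lower in CFA paw than in CFA muscle and none passed as higher, while the list's median difference was −0.84 and 4 of the 12 were positive. The positive ones include the brightest of the list, Pmp22, at 9.70 in CFA paw and 9.63 in CFA muscle, and Scn7a, a sodium channel, at 8.41 in CFA paw and 7.31 in CFA muscle. In the fit without saline paw replicate 1, 4 of the 12 were lower and 1 higher in that comparison, where 2.42% of all genes were lower and 10.6% higher. Mal and Mag encode membrane proteins of myelin, and Gldn gliomedin, which clusters sodium channels at the node of Ranvier. The summed linear level of the 12 markers was 1230 to 1490 in CFA paw, 610 to 1340 in saline paw, 906 to 1650 in CFA muscle, 596 to 1630 in acid muscle and 664 to 1300 in saline muscle, so the sum, which Pmp22 leads, overlapped between groups. Apod, from a list of 21 fibroblast markers, moved with Ogn as well. It read 4.60 to 5.38 on the paw arrays, 7.31, 6.39 and 5.60 in CFA muscle, 7.51, 5.52 and 6.46 in acid muscle, and 6.81, 6.08 and 6.20 in saline muscle. Not every fibroblast marker did so, since Pi16 read 2.45, 2.67 and 2.95 in CFA muscle, where Ogn fell. The mean of the 21 followed the order of Ogn in CFA muscle (3.48, 3.29 and 3.21) and acid muscle (3.58, 3.26 and 3.34). In saline muscle that mean was flat (3.28, 3.28 and 3.29). In these RNA samples of many cells, fewer cells of a type and less RNA per cell cannot be told apart. The parts of Schwann cells and fibroblasts in the Ogn difference were not tested.

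Dcn encodes decorin, which coats collagen fibrils and binds transforming growth factor beta. It read 4.80, 5.21 and 5.40 in CFA paw, 4.21, 5.15 and 5.21 in saline paw, 5.36, 4.31 and 4.47 in CFA muscle, 5.63, 4.0 and 3.77 in acid muscle, and 4.70, 4.84 and 3.57 in saline muscle. Every muscle group spanned over 1 log2 unit and the groups overlapped in all comparisons. The difference was 0.42 for CFA paw minus CFA muscle (95% interval −0.58 to 1.42) and 0.48 for saline paw minus saline muscle (−0.51 to 1.48), opposite in sign to Ogn, and neither passed. Lum, which encodes the related lumican, stayed between 1.31 and 1.77 on the 15 arrays, all below background, so nothing can be said of its differences.

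Sfrp2 encodes a secreted frizzled-related protein that binds Wnt ligands and is made by fibroblasts. It read 2.37, 2.37 and 2.50 in CFA paw, 2.64, 2.51 and 2.44 in saline paw, 2.86, 3.46 and 3.32 in CFA muscle, 2.65, 2.48 and 2.65 in acid muscle, and 2.68, 3.11 and 3.07 in saline muscle. All 3 CFA muscle arrays exceeded every paw and acid muscle array. The CFA paw mean was 2.41 ± 0.077 and the CFA muscle mean 3.21 ± 0.31, a difference of −0.80 (SE 0.16, 95% interval −1.15 to −0.45, adjusted p = 0.00983). It passed in all 15 fits that left out 1 array, with adjusted p from 0.00402 to 0.0474, and was lost with the array's SD as a covariate (−0.78, adjusted p = 0.0695). For saline paw minus saline muscle it was −0.43 (adjusted p = 0.197) and did not pass, although the 2 groups did not overlap. Only 1 CFA paw array was above background, against all 3 CFA muscle arrays, so the CFA paw level is not well measured and no fold is given.

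Abi3bp encodes a matrix protein that binds the ABI3 adaptor in human cells. It read 2.09, 2.19 and 2.21 in CFA paw, 1.92, 2.00 and 2.21 in saline paw, 2.38, 3.49 and 3.31 in CFA muscle, 2.13, 1.99 and 1.85 in acid muscle, and 2.59, 2.21 and 2.18 in saline muscle. It was above background on CFA muscle replicates 2 and 3 and on saline muscle replicate 1 only. CFA paw minus CFA muscle was −0.90 (SE 0.23, adjusted p = 0.0292). The CFA muscle mean was 1.53-fold the background level, although CFA muscle replicate 1 lay below that level. The call passed in 10 of the 15 fits that left out 1 array and was lost without CFA muscle replicate 2 (0.117) or 3 (0.110) and without CFA paw replicate 1 (0.105), 2 (0.0888) or 3 (0.0768). It was also lost after centring the arrays (0.0846), quantile normalization (0.112) and cyclic loess (0.0875).

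The other matrix glycoproteins and the receptor did not pass in any comparison when all arrays were fitted together with equal weights and no covariate. With only the arrays compared in the fit, Fbln2 passed as higher and Fn1 as lower in CFA paw against CFA muscle. With array weights, Fbln1, Fbln2, Fn1 and Pdgfra passed in that comparison. Fn1, fibronectin, a cell-adhesive matrix protein, read 2.40, 2.24 and 2.32 in CFA paw, 2.71, 2.13 and 2.23 in saline paw, 2.64, 2.93 and 3.39 in CFA muscle, 2.86, 3.45 and 2.44 in acid muscle, and 2.54, 2.51 and 2.87 in saline muscle. CFA paw lay below background on all 3 arrays and below every CFA muscle array, and the difference was −0.67 (95% interval −1.19 to −0.14, adjusted p = 0.132). The CFA muscle mean of Fn1 was 1.46-fold the background level. Fbln1, fibulin 1, a basement membrane and elastic fibre protein, averaged 2.62 ± 0.18 in CFA paw and 3.16 ± 0.44 in CFA muscle (−0.54, adjusted p = 0.177). Pdgfra, the platelet-derived growth factor receptor alpha that marks fibroblasts, averaged 2.63 ± 0.23 and 3.16 ± 0.59 in the same 2 groups. Postn, periostin, a matricellular protein of injured and loaded tissue, ranged from 3.15 on saline paw replicate 1 to 4.31 on saline muscle replicate 1 and its groups overlapped in all comparisons. With the array's SD as a covariate Postn passed as lower, at −0.75 in CFA paw minus CFA muscle (adjusted p = 0.0464) and −0.73 in saline paw minus saline muscle (adjusted p = 0.0418).

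Fbln2, fibulin 2, another glycoprotein of basement membranes and vessels, stood the other way. It read 5.61, 5.73 and 5.70 in CFA paw, 5.34, 5.87 and 5.63 in saline paw, 5.16, 5.41 and 5.07 in CFA muscle, 5.28, 4.89 and 5.40 in acid muscle, and 5.19, 4.85 and 5.30 in saline muscle. Both paw groups lay above their muscle counterparts without overlap. The differences were 0.47 for CFA paw minus CFA muscle (adjusted p = 0.144) and 0.50 for saline paw minus saline muscle (adjusted p = 0.166), and the saline comparison passed without saline paw replicate 1 (0.64, adjusted p = 0.0249). The direction rested on the scaling, since quantile normalization gave −0.03 and cyclic loess 0.03 for CFA paw minus CFA muscle, and quantile normalization gave 0.11 for saline paw minus saline muscle.

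**Figure D2:**
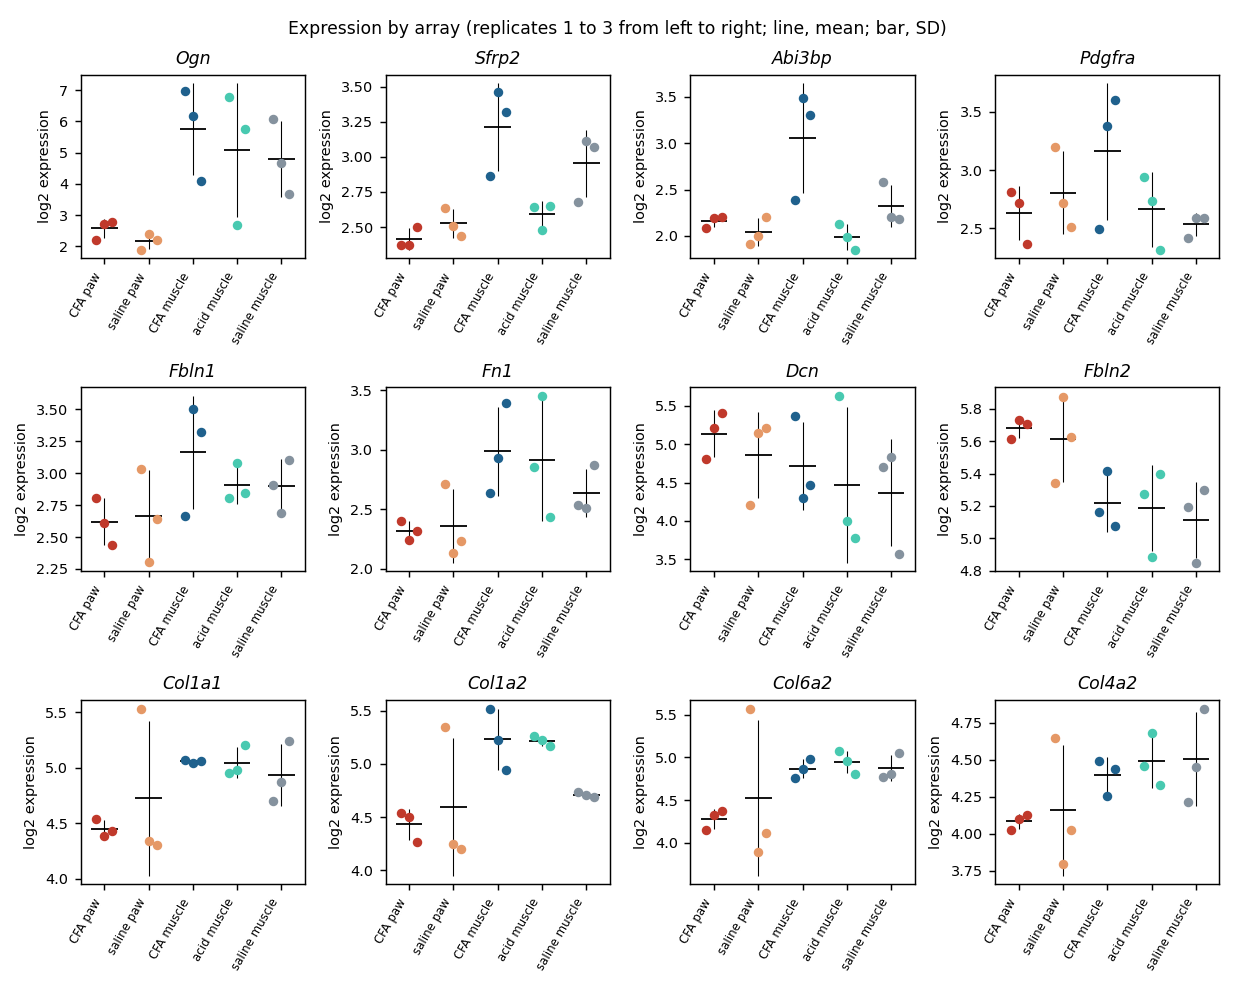
Log2 expression of 12 members on each array, with replicates 1 to 3 from left to right in each group, a line at the group mean and a bar of ±1 SD (n = 3). Ogn is low on all paw arrays and on acid muscle replicate 2, Abi3bp is high on CFA muscle replicates 2 and 3, and Col1a1, Col1a2 and Col6a2 are high on saline paw replicate 1.

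The collagens as a set were set against all genes in the paw and muscle neurons. In CFA paw against CFA muscle, 41 of 44 collagen differences were negative with a median of −0.30, against a median of −0.04 over all genes, of which 43.8% were positive. Within the set of 54, 3 genes were lower and 0 higher, where 6.41% of all genes passed, 0.667% lower and 5.75% higher. No collagen passed. The groups did not overlap for 33 members that were lower, 28 of them collagens and 1 Lum, which is below background in both groups, where 17.1% of all genes were lower without overlap, and for 1 that was higher, Fbln2, where 18.9% of all genes were. The direction held after centring each array (collagen median −0.20, all-gene median 0.07), quantile normalization (−0.41) and cyclic loess (−0.40), but with the array's SD as a covariate the collagen median was 0.19 and 33 of 44 were positive. Over all genes the calls were 1146 higher and 133 lower as deposited, 477 and 218 after quantile normalization, 700 and 292 after cyclic loess, and 232 and 212 with that covariate.

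Saline paw against saline muscle moved with the array left out. With all arrays, 39 of 44 collagens were negative with a median of −0.21, 0 members passed, and 2.04% of all genes did, 0.171% lower and 1.87% higher. Without saline paw replicate 2 the median was −0.02 with 18 of 44 positive, and without replicate 3 it was −0.11 with 11 positive, while all-gene calls were 51 higher and 7 lower, and 47 higher and 4 lower. Without saline muscle replicate 3 the median was −0.13. No collagen passed in any of these 3 fits. Without saline paw replicate 1 the median was −0.49, 20 collagens were lower and 0 higher, and 5.10% of all genes were lower and 14.1% higher. In that fit 43 members, 39 of them collagens, were lower without overlap (28.3% of all genes), while with all arrays 3 were, Ogn, Sfrp2 and Col6a4 (7.06% of all genes). Fbln2 was higher without overlap with all arrays (8.11% of all genes), and Fbln2 and Dcn without that array (27.0%). The all-gene calls were 373 higher and 34 lower as deposited, 213 and 132 after quantile normalization, 265 and 161 after cyclic loess, and 164 and 206 with the array's SD as a covariate. With that covariate the collagen median was 0.14 on all arrays and 37 of 44 were positive. With that covariate and without saline paw replicate 1 it was −0.22 and no collagen passed.

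Among the 11 fibrillar chains, the median difference was −0.34 for CFA paw minus CFA muscle and −0.24 for saline paw minus saline muscle. Col1a1 and Col1a2 encode the 2 chains of type I collagen, the main collagen of skin, tendon and nerve sheath. Col1a2 read 4.53, 4.50 and 4.27 in CFA paw, 5.34, 4.24 and 4.20 in saline paw, 5.52, 5.23 and 4.94 in CFA muscle, 5.27, 5.22 and 5.17 in acid muscle, and 4.74, 4.70 and 4.69 in saline muscle. Apart from saline paw replicate 1, every paw array was below every muscle array, and within muscle both treated groups were above saline. CFA paw minus CFA muscle was −0.80 (SE 0.24, 95% interval −1.32 to −0.28, adjusted p = 0.0674), which passed without saline paw replicate 1 (adjusted p = 0.00169), an array outside this comparison whose spread enters the common variance. Col1a1 read 4.54, 4.38 and 4.43 in CFA paw, 5.53, 4.34 and 4.31 in saline paw, 5.07, 5.05 and 5.06 in CFA muscle, 4.95, 4.98 and 5.20 in acid muscle, and 4.70, 4.87 and 5.24 in saline muscle. Its CFA paw arrays were below all muscle arrays, but within muscle the groups overlapped. It gave −0.61 (adjusted p = 0.187) for CFA paw minus CFA muscle, and passed without saline paw replicate 1 (adjusted p = 0.00938).

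The other fibrillar chains were alike in direction. Without saline paw replicate 1, 7 of the 11 were lower in the saline paw group than in the saline muscle group, where 5.10% of all genes were. Among the 7 were Col11a2 (−0.71, adjusted p = 0.00442), a minor chain of cartilage fibrils, Col3a1 (−0.70, adjusted p = 0.0103), the collagen of vessels and early scars, Col5a1 (−0.68, adjusted p = 0.00464), which sets fibril diameter, and Col2a1 (−0.67, adjusted p = 0.0238), the collagen of cartilage. Col2a1 read 4.78, 4.81 and 4.86 in CFA paw, 5.76, 4.45 and 4.57 in saline paw, 5.19, 5.14 and 5.14 in CFA muscle, 5.22, 5.55 and 5.09 in acid muscle, and 4.90, 5.04 and 5.62 in saline muscle. Col5a2 gave −0.37 in CFA paw against CFA muscle (adjusted p = 0.182). Col11a1 was the exception, at 0.08 in that comparison.

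The 6 chains of type VI collagen, which form beaded filaments around cells, had medians of −0.38 for CFA paw minus CFA muscle and −0.29 for saline paw minus saline muscle. Col6a1 read 4.66, 4.87 and 5.06 in CFA paw, 5.96, 4.38 and 4.84 in saline paw, 5.38, 5.16 and 5.47 in CFA muscle, 5.16, 5.57 and 5.25 in acid muscle, and 4.88, 5.31 and 5.45 in saline muscle. Col6a2 read 4.15, 4.32 and 4.38 in CFA paw, 5.57, 3.90 and 4.11 in saline paw, 4.76, 4.86 and 4.99 in CFA muscle, 5.07, 4.96 and 4.81 in acid muscle, and 4.77, 4.81 and 5.05 in saline muscle. In both genes saline paw replicate 1 was the highest of all arrays and saline paw replicate 2 the lowest. Col6a2 passed without saline paw replicate 1 in both comparisons, at −0.58 for CFA paw minus CFA muscle (adjusted p = 0.00808) and −0.87 for saline paw minus saline muscle (adjusted p = 0.00132). Without that array 5 of the 6 chains were lower in the saline paw group than in the saline muscle group, all but Col6a1, where 5.10% of all genes were lower. With all arrays, Col6a4 at −0.62 and Col6a3 at −0.39 had the smallest p of the collagens in that comparison (adjusted p = 0.199 and 0.253). Col6a6 had the widest range of the collagens, from 4.15 on saline paw replicate 2 to 5.96 on saline paw replicate 1.

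Type IV collagen, the network of basement membranes around Schwann cells and vessels, had medians of −0.26 and −0.22 over its 6 chains in CFA paw minus CFA muscle and saline paw minus saline muscle. Col4a2 read 4.03, 4.10 and 4.12 in CFA paw, 4.65, 3.79 and 4.03 in saline paw, 4.49, 4.25 and 4.44 in CFA muscle, 4.46, 4.68 and 4.33 in acid muscle, and 4.21, 4.45 and 4.85 in saline muscle. Its CFA paw arrays were below all CFA muscle arrays, and it passed in saline paw minus saline muscle only without saline paw replicate 1 (−0.59, adjusted p = 0.0318), as did Col4a6 (−0.53, adjusted p = 0.0371). Col4a1, its partner in the common network, was 4.05 ± 0.19 in CFA paw and 4.34 ± 0.14 in CFA muscle (SD, n = 3 each). Col4a4 gave −0.55 for CFA paw minus CFA muscle (adjusted p = 0.0958), and passed without saline paw replicate 1 (adjusted p = 0.0311).

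The fibril-associated collagens, which sit on the surface of fibrils, had medians of −0.29 and −0.17 over 9 chains in CFA paw minus CFA muscle and saline paw minus saline muscle. Col9a2 read 4.68, 4.44 and 4.39 in CFA paw, 5.81, 4.03 and 4.52 in saline paw, 5.06, 5.17 and 5.10 in CFA muscle, 5.30, 5.51 and 5.52 in acid muscle, and 4.94, 5.09 and 5.54 in saline muscle. It was −0.61 in CFA paw minus CFA muscle and passed without saline paw replicate 1 (adjusted p = 0.0283), an array outside that pair, and −0.92 in saline paw minus saline muscle without that array (adjusted p = 0.00468). Col9a3, its partner chain, was −0.69 in the second of these (adjusted p = 0.0123).

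The remaining classes were smaller. Col13a1 and Col23a1 encode collagens that span the cell membrane, and without saline paw replicate 1 they were lower in the saline paw group than in the saline muscle group, by −0.87 (adjusted p = 0.00570) and −0.80 (adjusted p = 0.00832), as was Col17a1 (−0.55, adjusted p = 0.0206), while Col25a1 was at 0.12. Col13a1 read 4.18, 3.99 and 3.99 in CFA paw, 5.23, 3.47 and 3.91 in saline paw, 4.50, 4.42 and 4.59 in CFA muscle, 4.56, 5.06 and 4.42 in acid muscle, and 4.42, 4.60 and 4.66 in saline muscle. Col7a1, the anchoring fibril collagen of skin, was −0.54 in the same fit (adjusted p = 0.0255), and Col8a2, a short-chain collagen of vessel and cornea, ranged from 2.94 on saline paw replicate 2 to 4.17 on saline paw replicate 1. Col10a1, the collagen of growth plate cartilage, read 2.36, 2.28 and 1.93 in CFA paw, all below background, and 3.06, 2.60 and 2.50 in CFA muscle. Its CFA muscle mean was 1.21-fold the background level, and the difference did not pass (adjusted p = 0.119). The multiplexins Col15a1 and Col18a1, basement membrane collagens with cleavable ends, were −0.03 and −0.25 in CFA paw minus CFA muscle. Col26a1 and Col28a1 were −0.26 and −0.30.

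**Figure D3:**
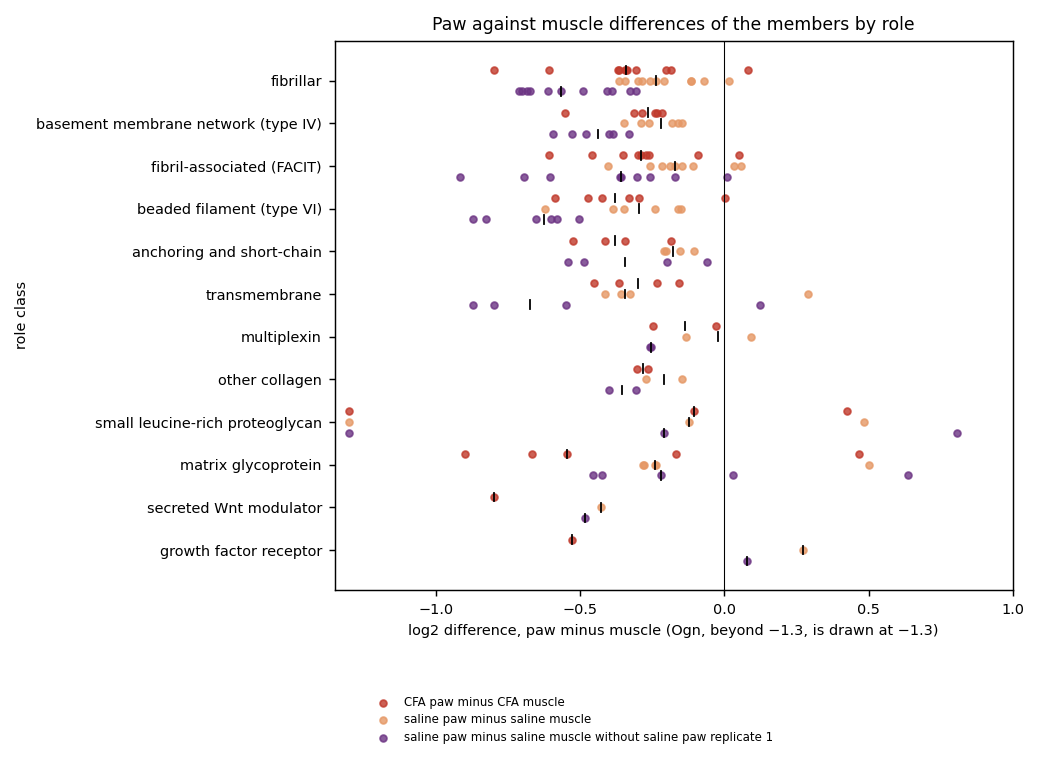
Log2 differences of the 54 genes, paw minus muscle, in each role class, for CFA paw minus CFA muscle (red), saline paw minus saline muscle (orange) and that saline comparison without saline paw replicate 1 (purple), with a black tick at the class median. Ogn lies beyond −1.3 and is drawn there. Most collagens lie left of 0, and the purple points lie further left than the orange ones.

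CFA in the paw was tested against saline in the paw in skin neurons. No member passed, 0 of the 54 had an unadjusted p under 0.05 in limma, and 0% of all genes were called, with 241 of all genes (1.21%) at an unadjusted p under 0.05. The member median was −0.09, against −0.01 over all genes. The smallest p belonged to Col10a1, which read 2.36, 2.28 and 1.93 in CFA paw and 2.57, 2.40 and 2.80 in saline paw (adjusted p = 1.00). Its saline paw mean was 1.11-fold the background level. Col18a1 was at −0.33, Col27a1 at −0.35 and Col25a1, a neuronal membrane collagen, at −0.26, with 95% intervals that reached past 0 for these 3. Of the collagens, 3 did not overlap between the groups, Col20a1 higher (1.73% of all genes) and Col10a1 and Col12a1 lower (2.99% of all genes). Without saline paw replicate 1 the collagens were positive for 40 of 44 with a median of 0.21 and 22 members were higher without overlap (12.3% of all genes), but 0 were called.

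CFA in muscle against saline in muscle gave a member median of 0.04, against −0.01 over all genes, with 0 members and 0% of all genes called. In this comparison 3 members had an unadjusted p under 0.05, where 518 of all genes (2.60%) had. Abi3bp was at 0.74 (SE 0.23), Pdgfra at 0.62 (SE 0.26) and Col1a2 at 0.52 (SE 0.24), and adjusted p was 1.00 for each. Pdgfra read 2.49, 3.38 and 3.60 in CFA muscle and 2.42, 2.59 and 2.59 in saline muscle. On CFA muscle replicates 2 and 3, Pdgfra, Abi3bp, Fbln1 and Fn1 all exceeded every saline muscle array, and on replicate 1 none of these 4 did. Without replicate 1, Abi3bp passed, at 1.07 (adjusted p = 0.0364), and 10 members were higher without overlap (8.44% of all genes), among them Sfrp2, Col1a2 and Col24a1, and 2 lower (8.63%). With all arrays 2 members were, Col1a2 and Col4a5 (3.63% of all genes), and Col11a1 was lower (4.10%). Replicate 1 was singled out by Pdgfra, Abi3bp, Fbln1 and Fn1, all among the 10, so its removal gives no separate support. No member passed when CFA muscle replicate 2 or 3 was left out instead. With all arrays, Sfrp2, at 0.26, came next by p.

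Acid in muscle, set against the same saline muscle arrays, gave 0 members and 0% of all genes called, and 3 members with an unadjusted p under 0.05, where 568 of all genes (2.85%) had. These were Col20a1 at 0.39, Col14a1, a fibril-associated collagen, at 0.40 and Sfrp2 at −0.36, with adjusted p of 1.00 for each. Of the 44 collagens, 36 were positive, also after centring, quantile normalization, cyclic loess and with the array's SD as a covariate, with a median of 0.13, where 53.7% of all genes were positive. Without acid muscle replicate 2, 29 of 44 were positive and the median was 0.041. In all, 7 collagens were higher without overlap, Col1a2, Col4a1, Col18a1, Col20a1, Col23a1, Col27a1 and Col28a1 (3.98% of all genes), and Sfrp2 and Abi3bp were lower (2.94%). Col1a2 was at 0.51 (95% interval −0.01 to 1.03). Acid muscle replicate 2, the array with the smallest SD over all genes (1.28), was the highest of the 15 arrays for 12 collagens.

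Between the 2 muscle treatments, CFA minus acid, 0 members and 0% of all genes were called, and 4 members had an unadjusted p under 0.05, where 626 of all genes (3.14%) had. Abi3bp was at 1.07 (SE 0.23, unadjusted p = 0.000307), with acid muscle below background on all arrays and a CFA muscle mean 1.53-fold the background level, and Sfrp2 was at 0.62 (SE 0.16, unadjusted p = 0.00174). Col20a1, at −0.39, and Col6a5, at −0.43, had the other 2. The values of 4 members lay higher without overlap (2.92% of all genes), Abi3bp, Sfrp2, Col4a5 and Lum, of which Lum is below background in both groups and shows no difference of level, and those of 10 collagens lay lower (5.23%). Without CFA muscle replicate 1, Abi3bp passed, at 1.41 (adjusted p = 0.00757), and 7 members, Lum below background among them, lay higher (8.78% of all genes) and 13 lower (9.79%) with no overlap. That array was singled out by Abi3bp among other members, and no member passed when CFA muscle replicate 2 or 3 was left out. The comparison uses the arrays of both preceding ones.

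The effect of CFA in muscle minus its effect in paw was tested directly, and 0 members and 0% of all genes passed, with 325 of all genes (1.63%) at an unadjusted p under 0.05. Pdgfra had the smallest p, with a difference of 0.80 (95% interval 0.0058 to 1.59, unadjusted p = 0.0486, adjusted p = 1.00). Next by p came Col1a2 at 0.68, Abi3bp at 0.62 and Col25a1 at 0.45. Ogn was at 0.54, with a 95% interval of −2.16 to 3.23. The member median was 0.10, and without saline paw replicate 1 it was −0.10, so its sign rested on that array.

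Neighbouring genes with shared promoters or clusters were looked at side by side. Col4a1 and Col4a2, transcribed in opposite directions from a common promoter, were on the same side of their own means on 12 of 15 arrays. Col4a3 and Col4a4, paired in the same way, were so on 14, Col6a1 and Col6a2 on 14 and Col3a1 and Col5a2 on 13. Dcn and Lum, also neighbours, were so on 5 of 15, with Lum below background throughout. No other coding gene lies between the 2 members of any of these pairs. The arrays share their depth of signal between all genes, so these counts describe the arrays as well as the genes. No count was made for pairs that are not neighbours, and 41 of 44 collagens were highest on saline paw replicate 1 among the paw arrays. The counts therefore cannot show that neighbours move together more than other collagens do.

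Genes that make, bind or degrade collagen were read on the same arrays, and no test compared these lists with the collagens. None of 29 genes of collagen synthesis and processing, 15 laminins and basement membrane genes or 34 other matrix glycoproteins and proteoglycans passed in CFA paw against CFA muscle or saline paw against saline muscle with all arrays in the fit. In CFA paw minus CFA muscle 13 of the 29, 3 of the 15 and 9 of the 34 were positive, with medians of −0.01, −0.23 and −0.14. When saline paw replicate 1 was left out, saline paw against saline muscle had 4 higher and 2 lower synthesis genes, 0 higher and 3 lower laminin and basement membrane genes, and 2 higher and 3 lower other matrix genes. Of all genes, 14.1% were higher and 5.10% lower there. In the same fit CFA paw against CFA muscle had 3 higher and 1 lower, 0 higher and 1 lower, and 0 higher and 0 lower in the same order, where 10.6% of all genes were higher and 2.42% lower. Sparc, an osteonectin that binds collagen, averaged 7.94 ± 0.07 in CFA paw and 8.40 ± 0.54 in CFA muscle. Of 28 collagen and matrix receptors, Itga3, the integrin alpha 3 chain that binds laminin, was higher in CFA paw (0.84, adjusted p = 0.0253). Of 24 proteases and inhibitors, Timp2, an inhibitor of matrix metalloproteinases, was 9.08 ± 0.33 in CFA paw and 7.32 ± 0.23 in CFA muscle (1.76, adjusted p = 0.00273), and was also higher in saline paw than in saline muscle (1.34, adjusted p = 0.0287). Mmp16, a membrane-type metalloproteinase, was 0.82 higher (adjusted p = 0.0154), and of 17 genes of transforming growth factor beta signalling Tgfb2, a ligand, was 0.70 higher (adjusted p = 0.0206), each in CFA paw against CFA muscle. No gene of these 6 lists passed in the comparisons of CFA or acid with saline, where 0% of all genes did.

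Markers of the cells that could carry matrix RNA were read on the same arrays. Of 21 fibroblast markers other than the 54 genes, 14 were above background in their mean over all 15 arrays. Thy1, which sensory neurons also make, was higher in CFA paw than in CFA muscle (3.21, adjusted p = 0.000660) and none of the other 20 passed. Only 3 of the 21 were positive in that comparison, with a median of −0.17, and 4 of the 21 in saline paw minus saline muscle, with a median of −0.21. The summed linear level of these 21 was 1060 to 1150 in CFA paw, 662 to 1260 in saline paw, 337 to 450 in CFA muscle, 330 to 656 in acid muscle and 349 to 452 in saline muscle, and Thy1 makes up most of it in the paw groups. Dpt (dermatopontin) and Fap (fibroblast activation protein) were below background on all 15 arrays, at 1.55 to 2.05 and 1.55 to 2.27, while Pi16 averaged 2.54 in CFA paw and 2.69 in CFA muscle. Apod, also a fibroblast marker, averaged 5.23 ± 0.26 in CFA paw and 6.43 ± 0.85 in CFA muscle. The part of fibroblasts in the collagen differences was not tested.

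The other marker lists were read in the same way. In the mean over all arrays, endothelial markers were above background for 10 of 13 genes and mural cell markers for 12 of 12. In CFA paw against CFA muscle 0 of either list passed, with medians of −0.51 and −0.35, and 0 of the 13 and 0 of the 12 were positive. Their summed linear levels were 89.9 to 90.9 and 103 to 106 in CFA paw, 81.2 to 121 and 97.6 to 125 in saline paw, 104 to 178 and 130 to 157 in CFA muscle, 112 to 193 and 118 to 155 in acid muscle, and 111 to 134 and 119 to 139 in saline muscle. Of 10 perineurial and meningeal markers, 14 macrophage markers and 9 cartilage and bone markers, 0 passed in that comparison, with medians of −0.24, −0.18 and −0.10. In the same order, 1, 2 and 3 were positive. Of 12 skeletal muscle markers, Myh2 was lower (−0.72, adjusted p = 0.0215), with a list median of −0.24. None of the 12 was positive there or in saline paw minus saline muscle. These lists leaned the same way as the collagens, of which 3 of 44 were positive, where 43.8% of all genes were. The direction was therefore not particular to the collagens. Of 12 satellite glia markers, Sox2 was lower (−0.89, adjusted p = 0.0368), but 6 were positive and the median was −0.0055. The brightest of these, Apoe, averaged 10.31 in CFA paw and 9.57 in CFA muscle, and Fabp7 9.82 in CFA paw and 9.31 in CFA muscle, and neither passed. With saline paw replicate 1 left out of the fit, 1 endothelial and 2 mural cell markers were lower in CFA paw than in CFA muscle, where 2.42% of all genes were. Of the 15 sensory neuron markers, all above background, 10 were higher in CFA paw and 0 lower, where 5.75% and 0.667% of all genes were. Among the 10 were Tubb3 (2.13, adjusted p = 0.0143) and Nefl (1.61, adjusted p = 0.0136). Nefl, a neurofilament of large sensory neurons, read 9.65 to 12.16 over the 15 arrays. The part of this difference in neuronal markers in the collagen differences was not tested.

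**Figure D4:**
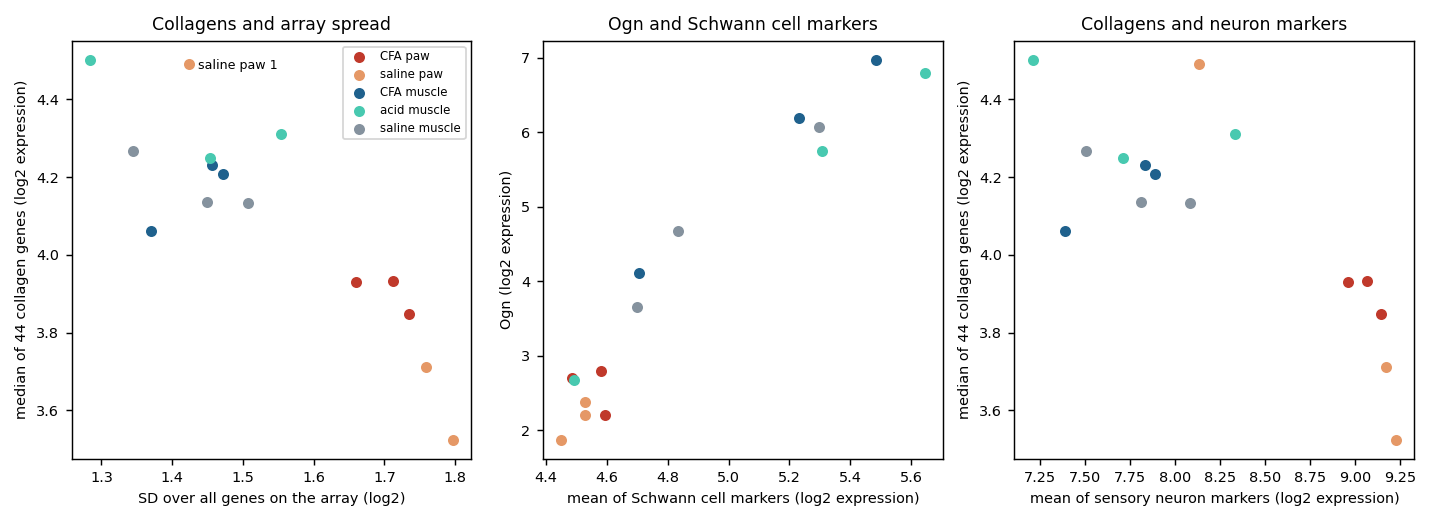
Each of the 15 arrays as a point coloured by group. Left, the median of the 44 collagens (log2) against the SD over all genes on the array (log2), with saline paw replicate 1 named. Middle, Ogn (log2) against the mean of 12 Schwann cell markers (log2). Right, the collagen median against the mean of 15 sensory neuron markers (log2). The 5 paw arrays other than saline paw replicate 1 have the highest SD and neuron marker means and collagen medians of 3.53 to 3.93, and Ogn is high where the Schwann cell mean is high.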

How the data were processed

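The series measured RNA of sorted neurons on 15 Affymetrix arrays, 3 in each of 5 groups named by the sample titles. The values are log2 expression deposited by the authors, made with RMA in Partek per the submitters' processing notes, in which no log base is given, so base 2 was inferred from the range. Of 35556 probe sets, 23410 were named in the platform table and 21789 had 1 symbol, which gave 19938 genes, each read from the probe set with the highest mean. All genes were fitted in 1 model of 5 group means with limma 3.58.1 in R 4.3.3, with Benjamini-Hochberg adjustment over all genes and a threshold of 0.05. The method was tested on simulated data with independent noise for each gene. Those data held no effect shared over an array, so that test does not cover an outlying array or unequal array spread. The number of arrays limits the precision.

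The members and the 16 gene lists were chosen with earlier results of these data known. The text names every member past the threshold, the 4 members with the smallest p in each comparison, the 10 genes that are not collagens, the 2 collagens with the highest mean in each role, list genes past the threshold and bright list genes. Other genes, such as Col3a1, Col5a1, Col11a2, Col13a1, Dpt, Fap and Pi16, were named after their values were seen. Alternatives were centring, quantile normalization, cyclic loess, the array's SD as a covariate, array weights, only the arrays compared, other thresholds, a replicate block and leaving out each array. Those that combined a scaling with leaving out saline paw replicate 1 were chosen after seeing the data. Overlap counts without an array were made only for saline paw replicate 1 and CFA muscle replicate 1, which stood out in the members' values.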

Additional observations from a re-analysis of the deposited data

How the results depend on the processing

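Of 406 alternative values of the member counts and medians, 370 were kept, 8 counts were lower, 13 counts were higher and 15 medians moved. A count was kept if it was equal or within a set ratio. A median was kept if it moved by less than 0.19, the pooled SD of the arrays' member medians. A kept median could therefore change sign, as in CFA muscle minus saline muscle, from 0.037 to as low as −0.0061. Of 784 for named members, 736 kept their sign and their side of the threshold, 25 lost the call, 15 gained it and 8 reversed. In CFA paw minus CFA muscle, 3 members passed as reported, 1 after centring, 1 after quantile normalization, 12 with only the arrays compared, 16 with array weights, 1 at a threshold of 0.01 and 5 at 0.1, and the member median was 0.13 with the array's SD as a covariate. All-gene calls there were 1279, against 695 after quantile normalization, 232 higher and 212 lower with the SD covariate, 3209 with only the arrays compared and 4054 with array weights. In saline paw minus saline muscle, 0 passed as reported, 28 with array weights and 1 with the SD covariate, whose median was 0.12, and all-gene calls were 407, against 213 after centring, 0 with only the arrays compared and 7379 with array weights. Without saline paw replicate 1, quantile normalization, cyclic loess and the SD covariate gave 7, 10 and 1 members in CFA paw minus CFA muscle, the last with a median of −0.069. Quantile normalization and cyclic loess gave 11 and 26 in saline paw minus saline muscle, with medians of −0.47 and −0.50. In CFA paw minus saline paw the 3 medians were 0.18, 0.25 and 0.14, and for the CFA effect in muscle minus that in paw −0.11, −0.20 and −0.092. Col27a1 in CFA paw minus saline paw reversed to 0.031 with array weights and, without saline paw replicate 1, to 0.077, or 0.14, 0.23 and 0.041 with the 3 scalings, and Col18a1 to 0.021, or 0.040 and 0.068 with quantile normalization and cyclic loess. Over the arrays left out in turn, Col18a1 ran from −0.54 to 0.021 and Col27a1 from −0.56 to 0.077. Leaving out each array in turn gave 0 to 0 members in CFA paw minus saline paw, 0 to 1 in CFA muscle minus saline muscle, 0 to 0 in acid muscle minus saline muscle, 0 to 1 in CFA muscle minus acid muscle, 0 to 21 in saline paw minus saline muscle, 1 to 8 in CFA paw minus CFA muscle and 0 to 0 in the difference of CFA effects. The medians ran from −0.22 to 0.18, −0.0061 to 0.067, 0.038 to 0.17, −0.15 to −0.0074, −0.44 to −0.029, −0.36 to −0.28 and −0.10 to 0.30 in the same order. Of 30 pairs of groups with the same replicate number, 10 had a correlation of deviations over 0.1 (−0.53 to 0.34), so the numbers were not taken as pairing. With the replicate block, 4 members passed in CFA paw minus CFA muscle, Col1a2 added (adjusted p = 0.0437), and 0 in saline paw minus saline muscle. Apart from the effect of fewer arrays, the cause of these changes was not tested. Genes near background, Lum, Abi3bp, Fn1, Col10a1, Ogn, Sfrp2 and Pdgfra, are limited by signal.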
